A study of Homo sapiens with 12 samples.

Results

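The CC chemokines described here are 10 members of a family of secreted proteins, chosen by name: CCL2, CCL3, CCL4, CCL5, CCL7, CCL8, CCL20, CCL22, CCL23 and CCL24. They were picked with earlier results of these data known, so their counts beside all genes are a description and no test. They were found by gene symbol in the platform annotation of the array, and each gene was read through the probe set naming it alone that had the highest mean over all arrays. Of the 10, 9 had such a probe set, out of 19775 genes in the table. CCL3 had only a probe set that also names its near-identical copies CCL3L1 and CCL3L3. That probe set is described here as the shared CCL3 probe set, and its values cannot be assigned to any 1 of these genes.

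The cells were U937, an established human cell line of the myelomonocytic lineage, carrying either an EVI1 expression vector or the empty vector. EVI1, a product of the MECOM locus, is a transcription factor with zinc fingers. Both populations were kept for 24 h with TPA at 50 ng/ml, a phorbol ester known as an activator of protein kinase C and as an inducer of macrophage-like features in this line, or with ethanol (EtOH), its solvent. The 4 groups, EVI1 with TPA, empty vector with TPA, EVI1 with EtOH and empty vector with EtOH, had 3 arrays each, called biological replicates by the submitters. The sources used here do not say whether replicates came from separate transductions, so tests between the populations may cover only the spread between cultures. The comparisons are TPA against EtOH within each population, EVI1 against empty vector within each treatment, and the difference between the responses to TPA.

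CC chemokines are small secreted proteins with a pair of adjacent cysteines that attract leukocytes through G protein-coupled receptors. Monocytes and macrophages are a main source of many of them, and NF-kB and AP-1 are well known activators of their genes. The family divides by role: CCL2, CCL7 and CCL8 are the monocyte chemoattractant proteins, CCL3, CCL4 and CCL5 attract monocytes and T cells, CCL20 attracts cells that carry CCR6, and CCL22, CCL23 and CCL24 act on T cell, monocyte and eosinophil receptors. On chromosome 17 lie 7 of the 10 genes, by RefSeq. CCL2 and CCL7 are direct neighbours there, CCL11 lies between CCL7 and CCL8, and CCL3 and CCL4 are direct neighbours.

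Promoter sequence was at hand for 7 of the 10 genes, from RefSeq on GRCh38.p14, and 3 promoters are shown because their genes had a single annotated start and rose strongly with TPA. Each line gives the 250 bases before the start, 5′ to 3′ on the strand of the gene. Capitals mark matches to TGANTCA, the AP-1 motif, or to the NF-kB consensus, both searched on both strands.
CCL20: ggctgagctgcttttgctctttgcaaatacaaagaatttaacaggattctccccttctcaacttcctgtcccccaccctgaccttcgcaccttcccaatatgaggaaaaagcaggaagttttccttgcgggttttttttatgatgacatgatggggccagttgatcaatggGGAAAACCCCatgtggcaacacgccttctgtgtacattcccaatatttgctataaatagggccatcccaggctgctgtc
CCL7: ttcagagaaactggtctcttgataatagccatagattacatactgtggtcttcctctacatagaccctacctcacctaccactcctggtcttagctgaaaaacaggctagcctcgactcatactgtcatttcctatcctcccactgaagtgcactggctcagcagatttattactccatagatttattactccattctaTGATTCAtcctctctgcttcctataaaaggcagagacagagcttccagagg
CCL8: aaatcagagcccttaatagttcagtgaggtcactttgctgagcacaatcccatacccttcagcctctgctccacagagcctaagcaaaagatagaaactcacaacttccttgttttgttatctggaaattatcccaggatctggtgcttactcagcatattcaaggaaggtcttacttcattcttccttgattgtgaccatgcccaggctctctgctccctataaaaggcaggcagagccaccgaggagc
The CCL20 stretch is chr2:227813592-227813841, + strand, that of CCL7 is chr17:34269971-34270220, + strand, and that of CCL8 is chr17:34319185-34319434, + strand. CCL20 held 1 NF-kB match, on the opposite strand, at positions -79 to -70 counted from the start. CCL7 held 1 AP-1 match at positions -51 to -45, and the CCL8 window held neither motif. Of 35116 promoters in the table, 6.57% held an AP-1 match and 9.96% an NF-kB match in the same 250 bases. Among the other members, both annotated starts of CCL24 had 1 AP-1 match, CCL22 had 2 overlapping NF-kB matches, and the windows of CCL3 and CCL23 had none. These matches are letters in a window and say nothing of binding.

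Values are log2 RMA signals of a probe set. Differences are log2 with the standard error (SE) of a limma fit over all 12 arrays, and adjusted p-values are Benjamini-Hochberg over all 19775 genes, with 0.05 as the threshold. Levels of different probe sets are not compared with each other. Group means under 5.07, the lowest of the array medians, were treated as possibly background. The 5 probe sets for MECOM read 2.59 to 3.32 on all arrays and none differed between the populations (smallest adjusted p = 0.102, over the 41091 probe sets that name 1 gene). Their place relative to the vector's insert was not examined, so they do not check the labels, and the transduced population is called EVI1-labelled. Pan-leukocyte PTPRC averaged 11.36, 11.38, 9.68 and 9.57 in the 4 groups as ordered above. Of 5 T cell markers none changed in any comparison, and their mean level was 4.23 to 4.51 on every array.

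TPA raised most of the listed members in both populations, and the responses of CCL20, CCL4 and CCL5 were smaller in EVI1-labelled cells. In EVI1-labelled cells 7 of the 9 genes measured alone rose with TPA and none fell, where 19.4% of all genes rose, 20.6% fell and 40.0% changed either way. In empty vector cells 8 of 9 rose and none fell, where 20.7% of all genes rose, 22.5% fell and 43.2% changed. The median TPA difference of the 9 was 2.10 in EVI1-labelled cells and 3.33 in empty vector cells, against 0.0033 and 0.0167 for all genes. The 3′ to 5′ signal gap, a sign of RNA integrity, moved with treatment too. For ACTB it was 1.31 ± 0.17 on 6 TPA arrays and 1.85 ± 0.13 on 6 EtOH arrays (SD, exact permutation test, two-sided p = 0.00216). Its part in the TPA differences was not tested. In such bulk RNA, fewer cells with a transcript and less transcript per cell cannot be told apart.

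**Figure D1:**
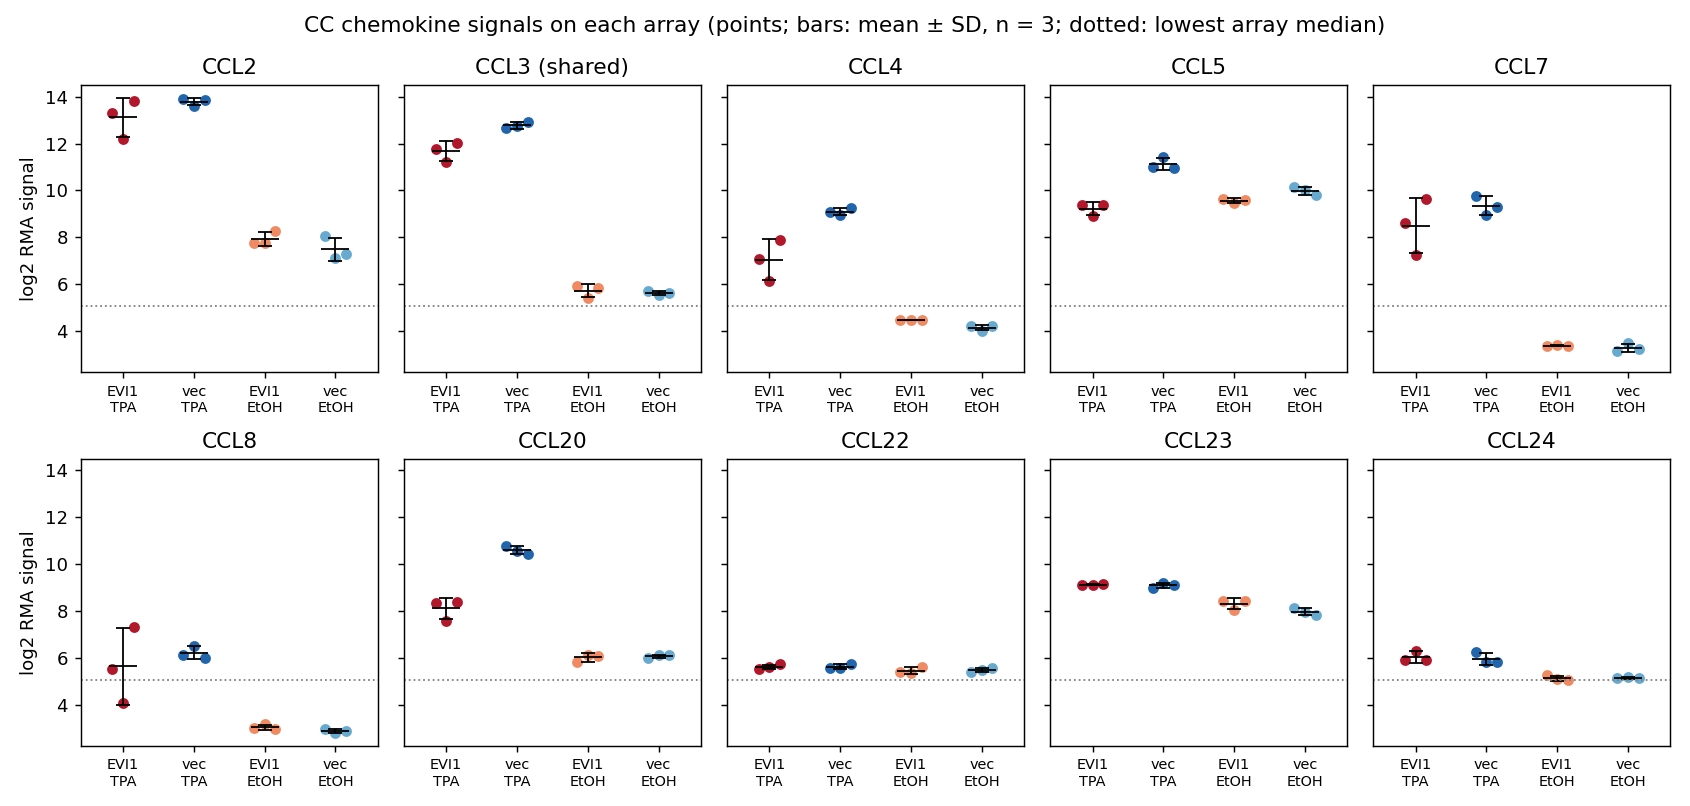
Log2 RMA signal of each CC chemokine on each of 12 arrays, by group, with points for arrays, bars for mean ± SD (n = 3) and a dotted line at the lowest array median of 5.07. CCL20 and CCL4 sit lower on all EVI1 TPA arrays than on the vec TPA arrays, CCL5 is highest on the vec TPA arrays, and CCL22 is level. CCL3 is the probe set shared with CCL3L1 and CCL3L3.

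CCL20, the only known chemokine ligand of CCR6, differed most between the populations after TPA. Its signal was 8.34, 7.59 and 8.40 on the EVI1-labelled TPA arrays and 10.78, 10.58 and 10.42 on the empty vector TPA arrays. In EtOH it was 5.81, 6.14 and 6.09 in EVI1-labelled cells and 5.99, 6.11 and 6.10 in empty vector cells. The TPA groups did not overlap with each other or with the EtOH groups, while the EtOH groups overlapped. CCL20 rose by 2.10 ± 0.18 with TPA in EVI1-labelled cells (adjusted p = 2.6e-07) and by 4.53 ± 0.18 in empty vector cells (adjusted p = 1.04e-10). The response was thus smaller in EVI1-labelled cells by 5.39-fold, a difference of -2.43 ± 0.25 (adjusted p = 0.000337). After TPA its level was -2.48 ± 0.18 relative to empty vector cells, or 5.59-fold lower (adjusted p = 3.14e-06). In EtOH the difference was -0.05 ± 0.18 (adjusted p = 0.962). The order of levels was empty vector TPA, EVI1-labelled TPA, then the EtOH groups, which did not differ beyond their spread. Its promoter, shown above, held an NF-kB match, as did that of CCL22, and none was at hand for CCL4 or CCL5. A role of the match was not tested.

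CCL4, also called MIP-1 beta, attracts monocytes, T cells and NK cells. It read 7.09, 6.13 and 7.90 on the EVI1-labelled TPA arrays and 9.09, 8.94 and 9.26 on the empty vector TPA arrays. In EtOH it read 4.46, 4.46 and 4.47 in EVI1-labelled cells and 4.22, 4.0 and 4.19 in empty vector cells. Both EtOH means lay below 5.07, so the size of its rise is uncertain, and the TPA groups did not overlap. CCL4 rose by 2.58 ± 0.30 in EVI1-labelled cells (adjusted p = 5.25e-06) and by 4.96 ± 0.30 in empty vector cells (adjusted p = 5.88e-09). The difference in response was -2.38 ± 0.42 (adjusted p = 0.0104). After TPA CCL4 was 4.16-fold lower in EVI1-labelled cells, at -2.06 ± 0.30 (adjusted p = 0.00047). In EtOH the difference of 0.33 ± 0.30 did not pass (adjusted p = 0.761), although every EVI1-labelled array was above every empty vector one. Its level was highest in empty vector TPA cells, then in EVI1-labelled TPA cells.

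The shared CCL3 probe set, for MIP-1 alpha and its copies, read 11.78, 11.19 and 12.04 on the EVI1-labelled TPA arrays and 12.65, 12.75 and 12.93 on the empty vector TPA arrays. In EtOH it read 5.91, 5.40 and 5.82 in EVI1-labelled cells and 5.71, 5.53 and 5.60 in empty vector cells. The TPA arrays stood far above all EtOH arrays, and the EVI1-labelled TPA arrays below the empty vector ones. In a fit over 54613 probe sets it rose by 5.96 ± 0.18 in EVI1-labelled cells (adjusted p = 2.22e-11) and by 7.16 ± 0.18 in empty vector cells (adjusted p = 3.25e-12). The difference in response was -1.20 ± 0.26 with an adjusted p of 0.0458, close to the threshold. After TPA it was 2.15-fold lower in EVI1-labelled cells, at -1.11 ± 0.18 (adjusted p = 0.00196). Which of the 3 genes gave this signal cannot be told apart.

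CCL5, or RANTES, attracts T cells, monocytes and eosinophils and is made late after activation in T cells. Its signal was 9.37, 8.89 and 9.38 on the EVI1-labelled TPA arrays and 11.00, 11.41 and 10.96 on the empty vector TPA arrays. In EtOH it was 9.65, 9.44 and 9.57 in EVI1-labelled cells and 10.14, 10.01 and 9.81 in empty vector cells. Every EVI1-labelled TPA array was below every other array, and every empty vector TPA array was above every other one. With TPA the difference was -0.34 ± 0.15 in EVI1-labelled cells, which did not pass (adjusted p = 0.0921), and 1.14 ± 0.15 in empty vector cells, where CCL5 rose (adjusted p = 1.74e-05). The difference in response was -1.48 ± 0.21 (adjusted p = 0.00271). After TPA CCL5 was 3.76-fold lower in EVI1-labelled cells, at -1.91 ± 0.15 (adjusted p = 5.57e-06). In EtOH it was at -0.43 ± 0.15, which did not pass (adjusted p = 0.184) although the arrays did not overlap.

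CCL5 had 2 further probe sets, which were fitted among all 41091 probe sets that name 1 gene. They gave differences in response of -1.51 ± 0.20 and -1.54 ± 0.20 (adjusted p = 0.00212 and 0.00153). For the TPA difference in EVI1-labelled cells they gave -0.27 ± 0.14 (adjusted p = 0.191) and -0.41 ± 0.14 (adjusted p = 0.0312). A fall of CCL5 with TPA in EVI1-labelled cells was therefore called by 1 of its 3 probe sets. Lower CCL5 after TPA relative to empty vector cells was called by all 3, at -1.91, -1.81 and -1.81.

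**Figure D2:**
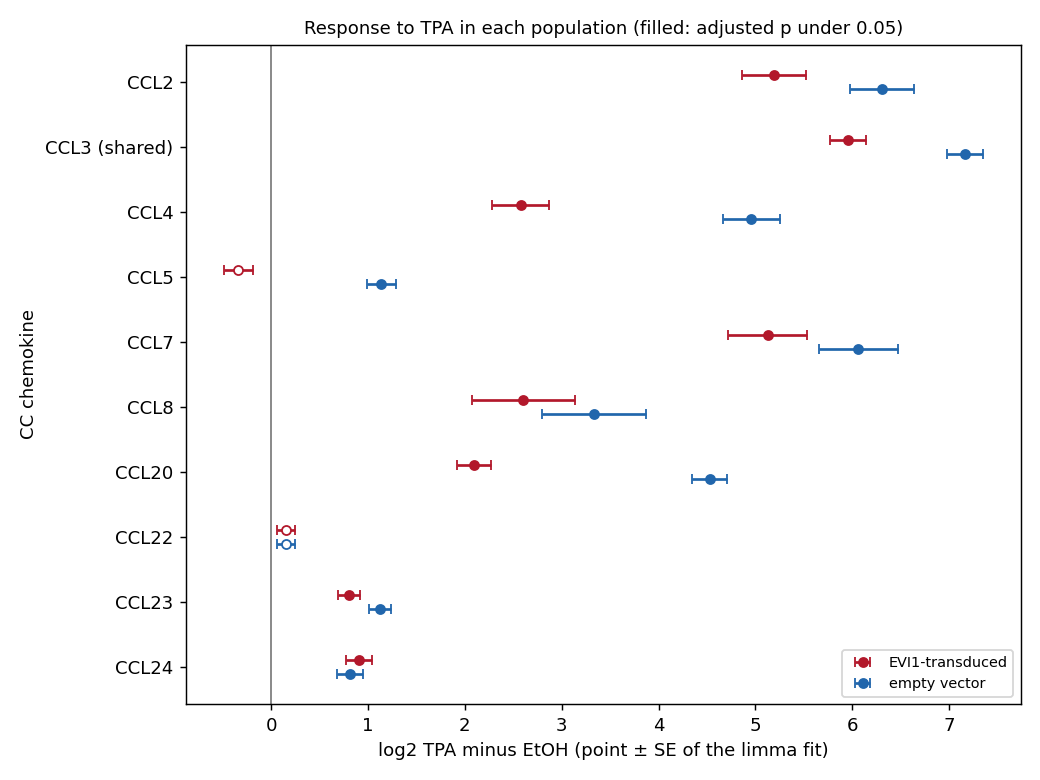
Log2 difference between TPA and EtOH for each CC chemokine (points ± SE of the limma fit) in EVI1-labelled cells (red) and empty vector cells (blue), with filled points for adjusted p under 0.05. The responses of CCL20 are 2.10 and 4.53, those of CCL5 lie on either side of 0, and those of CCL24 (0.91 and 0.82) lie close together. The shared CCL3 probe set was fitted among 54613 probe sets.

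The monocyte chemoattractant genes CCL2, CCL7 and CCL8 rose with TPA in both populations, and their differences between the populations did not pass the test. CCL2, the main ligand of CCR2, read 13.32, 12.20 and 13.82 on the EVI1-labelled TPA arrays and 13.91, 13.61 and 13.84 on the empty vector TPA arrays. In EtOH it read 7.74, 7.76 and 8.27 in EVI1-labelled cells and 8.04, 7.11 and 7.28 in empty vector cells. The EVI1-labelled TPA arrays overlapped the empty vector ones, with replicate 2 the lowest. CCL2 rose by 5.19 ± 0.33 in EVI1-labelled cells (adjusted p = 1.47e-08) and by 6.31 ± 0.33 in empty vector cells (adjusted p = 1.69e-09). The difference in response was -1.12 ± 0.47 with a 95% confidence interval of -2.13 to -0.11, and did not pass over all genes (adjusted p = 0.326).

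CCL7, which acts on several CC receptors, read 8.62, 7.25 and 9.62 on the EVI1-labelled TPA arrays and 9.76, 8.95 and 9.29 on the empty vector TPA arrays. In EtOH it lay between 3.36 and 3.38 in EVI1-labelled cells and between 3.13 and 3.47 in empty vector cells, below 5.07. The TPA groups overlapped. Its rise was 5.13 ± 0.41 in EVI1-labelled cells (adjusted p = 1.34e-07) and 6.06 ± 0.41 in empty vector cells (adjusted p = 2e-08), with a difference in response of -0.94 ± 0.58 (95% interval -2.18 to 0.31, adjusted p = 0.573). The promoter of CCL7 held an AP-1 match, as did that of CCL24, and a role of the match was not tested.

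CCL8 read 5.53, 4.06 and 7.33 on the EVI1-labelled TPA arrays and 6.14, 6.52 and 5.97 on the empty vector TPA arrays. In EtOH it lay between 2.95 and 3.16 in EVI1-labelled cells and between 2.81 and 2.96 in empty vector cells. The EVI1-labelled TPA arrays spanned the empty vector ones on both sides, and replicate 2 was below 5.07. Its rise was 2.60 ± 0.53 in EVI1-labelled cells (adjusted p = 0.00105) and 3.33 ± 0.53 in empty vector cells (adjusted p = 0.000114), with a difference in response of -0.73 ± 0.75 (95% interval -2.36 to 0.90, adjusted p = 0.776). For all 3 genes the intervals include sizes as large as the difference called for CCL5, so a smaller response is not shown to be absent.

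For CCL22, CCL23 and CCL24 no comparison between the populations passed the test. CCL23, a ligand of CCR1 made by myeloid cells, read 9.11 to 9.13 in EVI1-labelled and 9.0 to 9.20 in empty vector cells with TPA. In EtOH it read 8.06 to 8.44 in EVI1-labelled and 7.82 to 8.14 in empty vector cells, so the TPA arrays were all above the EtOH arrays. It rose by 0.81 ± 0.11 in EVI1-labelled cells (adjusted p = 3.54e-05) and by 1.12 ± 0.11 in empty vector cells (adjusted p = 1.17e-06). In EtOH it was at 0.34 ± 0.11 in EVI1-labelled relative to empty vector cells, which did not pass (adjusted p = 0.161). Its second probe set gave rises of 0.95 ± 0.15 and 1.44 ± 0.15 in the same order (adjusted p = 0.000128 and 2.04e-06).

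CCL24, or eotaxin-2, which attracts eosinophils through CCR3, read 5.90, 6.31 and 5.89 on the EVI1-labelled TPA arrays and 6.25, 5.80 and 5.81 on the empty vector TPA arrays. In EtOH it read 5.04 to 5.25 in EVI1-labelled and 5.12 to 5.17 in empty vector cells, close to the lowest array median. It rose by 0.91 ± 0.13 in EVI1-labelled cells (adjusted p = 5.93e-05) and by 0.82 ± 0.13 in empty vector cells (adjusted p = 0.000144). The difference in response was 0.09 ± 0.19 (95% interval -0.32 to 0.50). CCL22, a ligand of CCR4 made by dendritic cells and macrophages, read 5.35 to 5.74 on all 12 arrays and passed no test. Its TPA difference was 0.15 ± 0.10 in EVI1-labelled cells and 0.15 ± 0.10 in empty vector cells (adjusted p = 0.249 and 0.244).

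Between the populations, none of the 9 genes measured alone passed in EtOH, where 1.32% of all genes were higher, 1.95% lower and 3.27% called. Before adjustment limma put 2 of them, CCL5 and CCL23, under 0.05 there. The share of all genes under 0.05 before adjustment was not counted, so these 2 have no background beside them. After TPA 3 of 9 were lower in EVI1-labelled cells, CCL4, CCL5 and CCL20, and none was higher, where 5.90% of all genes were higher, 5.30% lower and 11.2% differed. The same 3 were called for the difference in response, each with the smaller response in EVI1-labelled cells, where 1.05% of all genes were called in that direction, 0.936% in the other and 1.98% in either. The median difference in response of the 9 was -0.94, against 0.0067 for all genes. These comparisons share arrays, so the calls after TPA and those for the difference in response are not separate evidence. Some markers of the myelomonocytic lineage were lower too. Of 10 measured, 4 were lower in EVI1-labelled cells after TPA, none was higher and 6 were not called, among them PTPRC at -0.02 and SPI1 at 0.08. Among the 4, FCGR1A averaged 2.94 in EVI1-labelled and 3.41 in empty vector TPA cells, below 5.07. ITGAM averaged 8.52 and 10.03 in the same order, at -1.50 ± 0.20 (adjusted p = 0.000224). CD14 and ANPEP were at -1.70 and -1.30 after TPA. Mean levels of the 10 were 7.62 to 7.75 on EVI1-labelled and 8.15 to 8.40 on empty vector TPA arrays. The difference in response was called for 2 of the 10, CD14 at -2.06 ± 0.27 (adjusted p = 0.00179) and ANPEP at -1.02 ± 0.23 (adjusted p = 0.0388). CD14, a monocyte co-receptor for lipopolysaccharide, averaged 5.05 in EVI1-labelled TPA, 6.75 in empty vector TPA, 5.11 in EVI1-labelled EtOH and 4.74 in empty vector EtOH cells. The part of these markers in the chemokine differences was not tested.

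**Figure D3:**
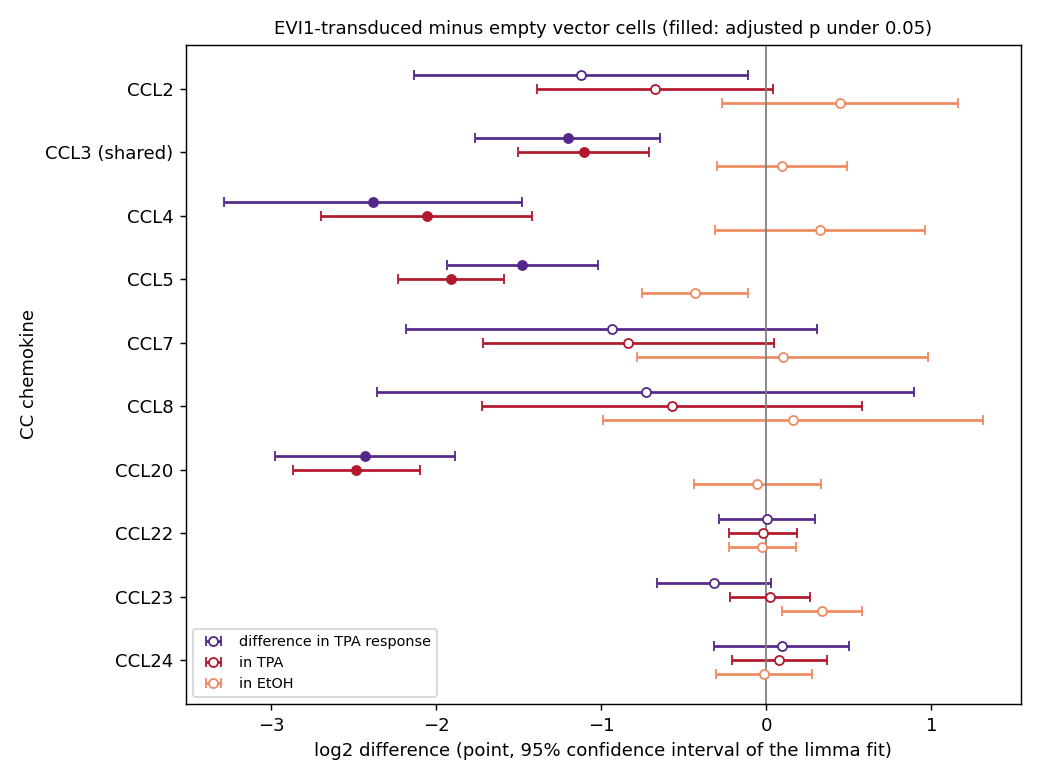
Log2 difference between EVI1-labelled and empty vector cells for each CC chemokine in TPA, in EtOH and as the difference in TPA response, with 95% confidence intervals of the limma fit and filled points for adjusted p under 0.05. CCL4, CCL5, CCL20 and the shared CCL3 probe set are filled for TPA (-2.06, -1.91, -2.48 and -1.11) and no gene is filled for EtOH.

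The EVI1-labelled TPA arrays were more spread than the others for these members. The median SD of the 9 genes was 0.45 there, 0.18 in empty vector TPA, 0.11 in EVI1-labelled EtOH and 0.12 in empty vector EtOH cells. For CCL4 the SD was 0.89 in EVI1-labelled TPA, 0.16 in empty vector TPA, 0.0058 in EVI1-labelled EtOH and 0.12 in empty vector EtOH cells. The SE and p-values rest on a common spread for each gene over all groups. They can thus be too small for comparisons with EVI1-labelled TPA cells and too large for others. Replicate 2 was the lowest EVI1-labelled TPA array for 7 of 9 members, against 32.1% of all genes, and replicate 3 the highest for 8 of 9, against 43.6%. Without replicate 3 of these arrays 6 of the 9 were lower than in empty vector cells after TPA, with CCL2, CCL7 and CCL8 added at -1.03, -1.40 and -1.42 (adjusted p = 0.0453, 0.0092 and 0.0075). Without replicate 2 the same 3 were at -0.22, -0.21 and 0.22, with adjusted p of 0.727, 0.742 and 0.818. The share of all genes called was not counted in these refits. The calls of CCL4, CCL5 and CCL20 were kept without each of the 12 arrays in turn, with differences after TPA of -2.49 to -1.60, -1.99 to -1.75 and -2.63 to -2.22. Those 3 also kept their call for the difference in response in each such fit, with largest adjusted p of 0.0362, 0.0111 and 0.00178.

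**Figure D4:**
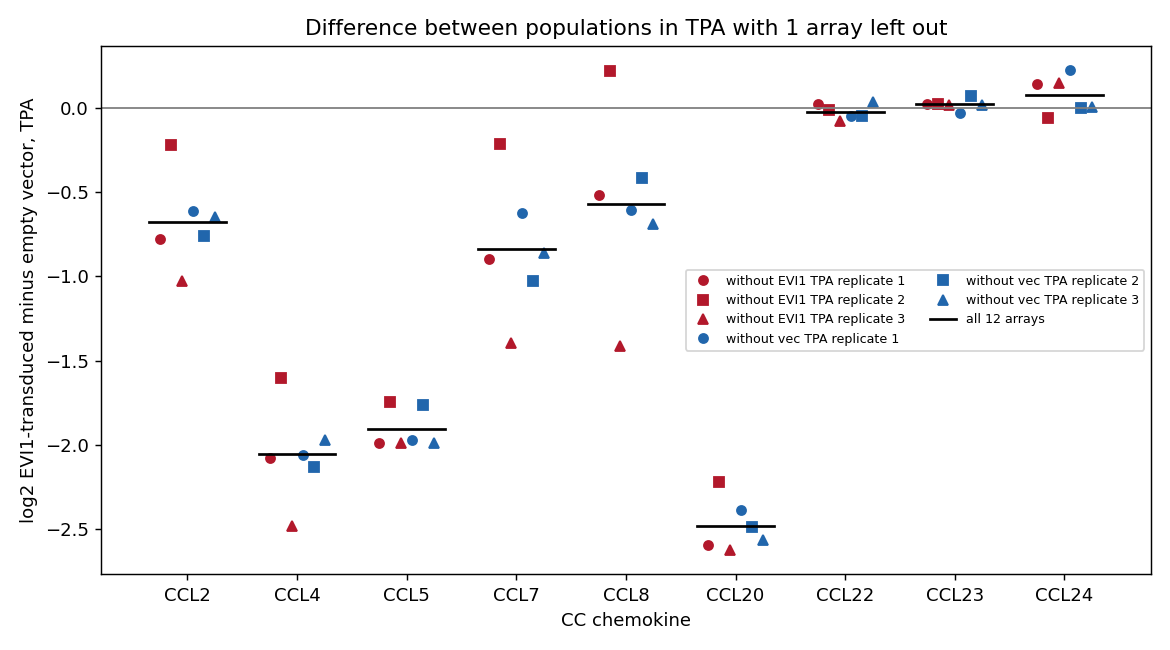
Log2 difference between EVI1-labelled and empty vector cells in TPA for 9 CC chemokines, with all 12 arrays (black line) and with each TPA array left out in turn (red for EVI1 TPA, blue for vec TPA, with a shape for each replicate). CCL8 lies at -1.42 without EVI1 TPA replicate 3 and at 0.22 without replicate 2, CCL4 lies between -2.49 and -1.60, and CCL20 between -2.63 and -2.22.

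Of 18 other CC chemokine ligands listed, 11 were measured. With TPA 3 of 11 rose in EVI1-labelled and 2 of 11 in empty vector cells and none fell, beside 19.4% and 20.7% of all genes that rose. The list median was 0.08 in EVI1-labelled and 0.12 in empty vector cells. CCL1, a ligand of CCR8, rose by 2.96 ± 0.19 in EVI1-labelled and 3.01 ± 0.19 in empty vector cells (adjusted p = 1.27e-08 and 8.39e-09). CCL26, or eotaxin-3, rose by 2.38 ± 0.18 and 2.71 ± 0.18 in the same order (adjusted p = 7.68e-08 and 1.68e-08). CCL18 rose by 0.30 ± 0.09 in EVI1-labelled cells (adjusted p = 0.0124), while its difference of 0.22 ± 0.09 in empty vector cells did not pass (adjusted p = 0.0532). None of the 11 differed between the populations in EtOH, after TPA or in response, where 3.27%, 11.2% and 1.98% of all genes were called. Group means lay below 5.07 for 5 of the 11 in EVI1-labelled TPA and 6 in empty vector TPA cells. In each EtOH group 8 lay below it. Differences of these dim genes could be missed.

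Of 14 CC chemokine receptors listed, 12 were measured. With TPA 2 rose and 2 fell in each population, where 40.0% of all genes changed in EVI1-labelled and 43.2% in empty vector cells. CCR1, a receptor for CCL3, CCL5, CCL7 and CCL23, rose by 3.75 ± 0.21 in EVI1-labelled and 3.44 ± 0.21 in empty vector cells (adjusted p = 4.04e-09 and 7.6e-09). CCRL2, an atypical receptor that does not signal like the others, rose by 4.31 ± 0.14 and 3.87 ± 0.14 (adjusted p = 2.46e-11 and 3.98e-11), and was higher in EVI1-labelled cells after TPA by 0.65 ± 0.14 (adjusted p = 0.00646). CCR2, the receptor of CCL2, CCL7 and CCL8, averaged 4.37 in EVI1-labelled TPA, 4.09 in empty vector TPA, 4.92 in EVI1-labelled EtOH and 5.99 in empty vector EtOH cells, above 5.07 only in the last. With TPA it fell in both, at -0.55 in EVI1-labelled and -1.90 in empty vector cells (adjusted p = 0.0215 and 5.18e-07), and was lower in EVI1-labelled cells in EtOH at -1.06 ± 0.18 (adjusted p = 0.00352). Its difference in response was 1.35 ± 0.25 (adjusted p = 0.0146), the only one called among the 12 receptors, where 1.98% of all genes were called. The sign was opposite to those of CCL4, CCL5 and CCL20, but CCR2 levels after TPA did not differ by the test, at 0.28 ± 0.18 (adjusted p = 0.4). CCR6, the receptor of CCL20, averaged 2.87 to 3.22 in the 4 groups, below 5.07, and fell with TPA in both, at -0.34 and -0.33 (adjusted p = 0.0353 and 0.0362).

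Of 19 cytokines and transcription factors known to induce CC chemokines, 17 were measured. With TPA 8 rose and none fell in EVI1-labelled cells, and 11 rose and 1 fell in empty vector cells. Of all genes 40.0% changed in EVI1-labelled and 43.2% in empty vector cells. After TPA 2 were higher and 5 lower in EVI1-labelled than in empty vector cells, and 4 had a smaller response there. Of all genes 5.90% were higher and 5.30% lower after TPA, and 1.05% were called with a negative difference in response. IL1B, an inflammatory cytokine, rose by 4.97 ± 0.28 in EVI1-labelled and 8.09 ± 0.28 in empty vector cells, a difference in response of -3.12 ± 0.40 (adjusted p = 0.00134). TNF rose by 1.74 ± 0.14 and 3.26 ± 0.14, with a difference of -1.52 ± 0.20 (adjusted p = 0.00179). IL1A, another of the 4, averaged 4.03 in EVI1-labelled and 4.78 in empty vector TPA cells, below 5.07. The AP-1 subunit genes JUN and FOS rose by 2.54 ± 0.12 and 3.29 ± 0.17 in EVI1-labelled cells. In empty vector cells they rose by 2.31 ± 0.12 and 3.70 ± 0.17. JUN was lower in EVI1-labelled cells in EtOH, at -0.56 ± 0.12 (adjusted p = 0.0238). The AP-1 subunit gene FOSL1 was lower there after TPA, at -0.48 ± 0.13 (adjusted p = 0.0317). No difference in response was called for JUN, JUNB, FOS or FOSL1. The NF-kB subunit genes did not share a direction. For NFKB2 the response differed by -0.69 ± 0.14 (adjusted p = 0.0234). REL was higher in EVI1-labelled than in empty vector cells after TPA, at 0.80 ± 0.16 (adjusted p = 0.00411), and its difference in response of 0.70 ± 0.22 did not pass (adjusted p = 0.155). For NFKB1, RELA and RELB the differences in response of 0.07, -0.18 and -0.64 did not pass (adjusted p = 0.929, 0.778 and 0.281).

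For 7 members whose group means spanned at least 1, the genes with the most similar mean-centred profile over 12 arrays were looked up by root mean square difference. IER3 was nearest to CCL2 at 0.33, IL1RN to CCL4 at 0.28, FCGR2A to CCL5 at 0.28, SUGCT-AS1 to CCL7 at 0.25, AQP9 to CCL8 at 0.42, RGS16 to CCL20 at 0.33 and TRIM38 to CCL23 at 0.11. IL1RN, the interleukin 1 receptor antagonist gene, averaged 8.38 in EVI1-labelled TPA, 10.56 in empty vector TPA, 5.59 in EVI1-labelled EtOH and 5.74 in empty vector EtOH cells. RGS16, a regulator of G protein signalling, averaged 9.29, 10.96, 7.10 and 7.14 in the same order. FCGR2A, an Fc receptor gene, averaged 7.27, 8.70, 7.17 and 8.13, and so was lower in EVI1-labelled cells in both treatments. All these profiles come from the same 12 arrays.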

How the data were processed

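RNA of U937 cells was measured on 12 arrays in 4 groups of 3. The values are log2 expression values deposited by the authors, which the submitters' processing notes credit to RMA in Expression Console 1.3. That method corrects background, makes array distributions equal and summarises probes, so it removes shifts common to most genes. No detection call was used, so low values have no stated floor and dim differences are compressed. The number of arrays limits the precision. Over all genes the SE had a median of 0.11 for 2 groups and of 0.15 for responses. Of 54675 probe sets, 1801 named several genes, 11777 none, and 41091 that were no controls named 1 gene. The main fit took 1 of these for each of 19775 genes, and the shared CCL3 probe set was fitted among all 54613 that were no controls.

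Tests used limma 3.58.1 (R 4.3.3), fitting a mean for each group, and were two-sided. Moderation added 5.22 degrees of freedom to the 8 of the residuals. The fit was tested on simulated data. Named genes were all members, up to 3 called genes with the largest change per list, direction and comparison (other ligands, receptors, inducers, IL-4 responsive macrophage genes and cell markers), and genes with the nearest profiles. Members and lists were chosen with earlier results of these data known. The shared CCL3 probe set was taken up after its annotation was seen. Alternatives were median centring, quantile normalization, a filter on dim genes, trended moderation, all probe sets that name 1 gene, other probe sets of a member, the replicate block, and single arrays left out. Arrays of the same replicate number correlated in their deviations at 0.415, 0.130 and 0.151 between the TPA groups, so numbers were taken to pair the samples there, from the data alone. In the other comparisons these correlations were positive too, but at least 1 pair was under 0.1. The main fit held no term for replicate numbers, and only the replicate block did.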

Additional observations from a re-analysis of the deposited data

Results flagged for a closer look

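The response to TPA differed between EVI1-labelled and empty vector cells for 4 probe sets, each by the test of the difference itself. CCL20 differed by -2.43 (adjusted p = 0.000337), CCL4 by -2.38 (adjusted p = 0.0104) and CCL5 by -1.48 (adjusted p = 0.00271). The probe set shared by CCL3, CCL3L1 and CCL3L3 differed by -1.20 (adjusted p = 0.0458, over 54613 probe sets). CCL20, CCL4 and the shared probe set rose in both populations, by less in EVI1-labelled cells. CCL5 rose in empty vector cells, and its TPA difference of -0.34 in EVI1-labelled cells did not pass (adjusted p = 0.0921).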

How the results depend on the processing

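No called difference of a member changed sign under the alternatives run. When genes dimmer than the median gene were dropped, CCL7, CCL8, CCL22 and CCL24 were no longer tested, and 4 of the other 5 rose with TPA in EVI1-labelled and 5 in empty vector cells. With single arrays left out, 0 to 1 members differed between the populations in EtOH, where CCL23 passed without replicate 2 of EVI1-labelled EtOH cells at 0.47 (adjusted p = 0.0412). After TPA 3 to 6 members were called, and the 6 came without replicate 3 of EVI1-labelled TPA cells. The other comparisons kept 7 called in EVI1-labelled cells, 8 in empty vector cells and 3 for the difference in response. With the replicate block the counts stayed at 7, 8, 0, 3 and 3 for TPA in EVI1-labelled cells, TPA in empty vector cells, EtOH, TPA and the difference in response, and no call of a member changed. With the shared CCL3 probe set counted, an alternative chosen after seeing the data, the same 5 counts were 8, 9, 0, 4 and 4. The causes of these changes were not tested, apart from the genes removed by the filter. Shares of all genes called were not counted under the alternatives. The number of arrays and the spread of the EVI1-labelled TPA arrays limit what can be shown for CCL2, CCL7 and CCL8, and signals below 5.07 have uncertain sizes.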

Other observations

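CCL22 and CCL24 are known products of macrophages exposed to IL-4, and 14 other genes of such macrophages were measured. With TPA 5 rose and 1 fell in EVI1-labelled cells, and 4 rose and 1 fell in empty vector cells. Of all genes 40.0% changed in EVI1-labelled and 43.2% in empty vector cells. The transcription factor genes PPARG and STAT6 rose by 2.28 ± 0.11 and 1.44 ± 0.09 in EVI1-labelled cells, and by 2.46 ± 0.11 and 1.71 ± 0.09 in empty vector cells. The receptor gene IL4R rose by 1.39 ± 0.11 and 1.81 ± 0.11 in the same order of populations. F13A1 fell in both, at -0.52 and -0.81, with all group means below 5.07. With TPA MRC1, CD209, ALOX15, TGM2, FCER2, MAOA, IRF4 and CD1B were called in neither population. After TPA IL13RA1 and CLEC10A were higher in EVI1-labelled cells at 0.60 ± 0.12 and 0.42 ± 0.11 (adjusted p = 0.005 and 0.0212), and IL4R was lower at -0.47 ± 0.11 (adjusted p = 0.0105). None of the 14 had a called difference in response.

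Of 10 myelomonocytic markers measured, 5 rose and 2 fell with TPA in EVI1-labelled cells, and 7 rose and 2 fell in empty vector cells. Beside this and the lists that follow, 40.0% of all genes changed with TPA in EVI1-labelled and 43.2% in empty vector cells. MPO, a granule protein gene, was higher in EVI1-labelled cells in EtOH by 0.84 ± 0.17 (adjusted p = 0.0121). Of 5 NK cell markers, none rose and 1 fell with TPA in EVI1-labelled cells, and 2 rose and 2 fell in empty vector cells. Their mean level was 5.06 to 5.18 in EVI1-labelled TPA, 5.04 to 5.12 in empty vector TPA, 5.34 to 5.48 in EVI1-labelled EtOH and 5.14 to 5.16 in empty vector EtOH cells. Of 8 stromal, endothelial and epithelial markers 2 rose in EVI1-labelled and 3 in empty vector cells. Among them were the endothelial genes PECAM1, by 2.51 and 2.56, and VWF, by 2.22 and 2.72. The epithelial genes EPCAM, KRT8 and KRT19 were called in no comparison. None of 5 platelet markers changed in any comparison. Of 4 B cell markers 1 fell in each population, PAX5 at -2.69 and -2.47. Of 3 erythroid markers KLF1 fell in both, at -1.22 and -1.24, and HBB rose by 0.48 in empty vector cells.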
